A study of Nothobranchius furzeri with 8 samples.

Results

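The families mir-337 and mir-299 are 2 of the 324 miRNA features counted in brain samples of Nothobranchius furzeri, the turquoise killifish, a fish with a short life that is used to study ageing. They were picked by name as the rows mir-337 and mir-299 of the table of counts, because their names come from one gene cluster of mammals and because their levels differed between the ages in opposite directions. The differences between the ages given for these families are therefore descriptions, with no test. Small RNA was sequenced from brain total RNA of male fish of the strain MZM-04/10p, with 4 libraries at 26 weeks and 4 at 6 weeks of age, numbered I to IV within each age. No treatment or genotype is named in the labels. The age label was followed for the older group, although 22 and not 26 stands in its titles. Whether each library was made from a different fish is not stated, and p-values thus rest on a spread between libraries that may in part be technical.

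A miRNA is a short RNA that guides Argonaute proteins to messenger RNAs with a matching site, mostly in their 3′ untranslated region, and lowers the output of those messages. In placental mammals, the genes of miR-337 and miR-299 lie in the imprinted Dlk1-Dio3 region, where a long run of miRNA genes is transcribed from the maternal chromosome and is active in brain, embryo and placenta. In human tumour cells, miR-337 has been described to target the transcription factor STAT3, and miR-299 the secreted phosphoprotein osteopontin. Whether the killifish features with these names derive from the same genes was not tested: the counts are per family name, with no arm, position or sequence.

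The libraries held 3347810 to 5715409 counts at 26 weeks and 2992917 to 4151620 at 6 weeks, with a mean of 4740660 ± 1050300 in the older group, against 3372290 ± 530455 in the younger group (SD, n = 4 each), so depth and age cannot be fully told apart. Levels below are in CPM, counts relative to a library total set to the same size everywhere and scaled to library size with TMM factors, which remove the effect of a few abundant miRNAs on the totals. The factors were 1.11, 0.861, 0.882 and 0.868 for libraries I to IV at 26 weeks, against 1.16, 1.09, 1.02 and 1.05 at 6 weeks. The 26-week library I had the lowest total of its age and was closest to the younger libraries in its factor. The tissue label was checked with miRNAs of brain (mir-124, mir-9, mir-128, mir-138 and mir-137), all 5 of which were present and together held 134514 to 151984 CPM at 26 weeks and 138197 to 154833 CPM at 6 weeks. The liver miRNA mir-122 held 9.95 to 23.1 CPM at 26 weeks and 16.6 to 25.5 CPM at 6 weeks, and the 2 of 3 muscle miRNAs present, mir-1 and mir-133, held 1171 to 1599 CPM in all at 26 weeks and 1104 to 1312 CPM at 6 weeks. The sum of mir-375 and mir-7, known from endocrine cells, ranged from 696 to 2250 CPM at 26 weeks, against 1076 to 1635 CPM at 6 weeks. This sum does not show the spread of mir-375 alone, whose SD of log2 CPM was 1.81 at 26 weeks and 2.42 at 6 weeks. For mir-7 the SD was 0.72 at 26 weeks and 0.67 at 6 weeks.

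The level of mir-337 was higher in the older brain. It reached 1184, 2013, 1300 and 2296 CPM in libraries I to IV at 26 weeks, against 808, 692, 772 and 719 CPM at 6 weeks. Every older library lay above every younger one, libraries II and IV at 26 weeks stood well above I and III, and the younger libraries lay close together. These values came from 4412 to 9911 counts per library at 26 weeks and 2343 to 3266 at 6 weeks, so that counting error was at most 1.51% of the value at 26 weeks and at most 2.07% at 6 weeks. Means were 1698 ± 541 CPM at 26 weeks and 748 ± 52.1 CPM at 6 weeks (SD, n = 4 each), a fitted 2.27-fold difference (log2 1.18 ± 0.22, SE). As a share of all counts, which uses no scaling factor, mir-337 held 0.155 ± 0.0386% at 26 weeks and 0.0810 ± 0.00880% at 6 weeks (n = 4 each).

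The level of mir-299 was lower in the older brain. It was 1159, 1462, 2035 and 1238 CPM in libraries I to IV at 26 weeks, against 2634, 2232, 2572 and 2622 CPM at 6 weeks. Every older library lay below every younger one, and the 26-week library III, the highest of its age, came nearest to the 6-week library II, the lowest of its own. Counts were 4317 to 9614 per library at 26 weeks and 7924 to 10876 at 6 weeks. Means were 1473 ± 396 CPM at 26 weeks and 2515 ± 191 CPM at 6 weeks (SD, n = 4 each), which is 0.586-fold (log2 -0.77 ± 0.19, SE). The share of all counts was 0.135 ± 0.0309% at 26 weeks, against 0.272 ± 0.0266% at 6 weeks (SD, n = 4 per age).

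**Figure D1:**
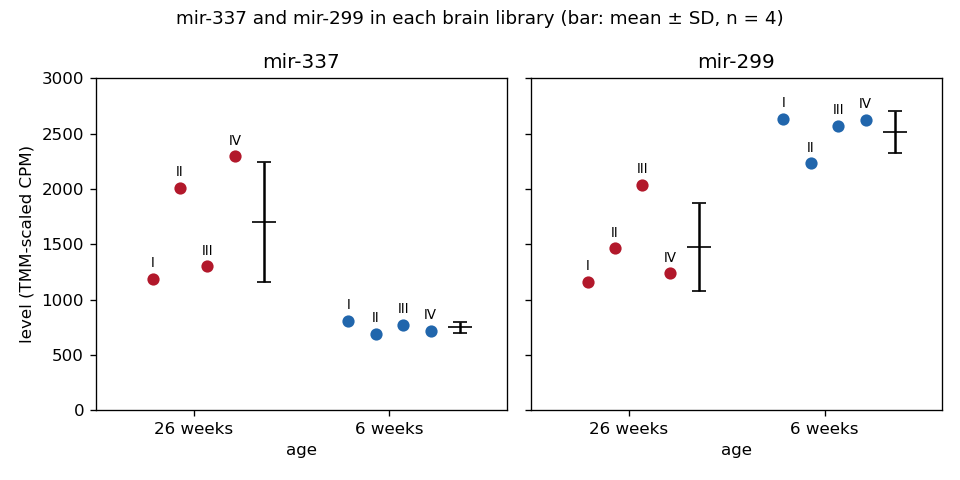
Level of mir-337 (left) and mir-299 (right) in TMM-scaled CPM in each brain library, labelled I to IV, with the mean ± SD of 4 libraries beside each age. The older libraries lie at 1184 to 2296 CPM for mir-337, above all younger ones, and at 1159 to 2035 CPM for mir-299, below all younger ones.

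For both families the older and the younger libraries lay apart with no overlap, as they did for 21.7% of the 212 features that passed the expression filter (14.2% higher and 7.55% lower at 26 weeks). At an adjusted p threshold of 0.05 (edgeR, quasi-likelihood, Benjamini-Hochberg), 14.2% of these features were called, with 10.4% higher and 3.77% lower at 26 weeks. The balance depended on scaling: the calls were 22 higher and 8 lower with TMM, against 15 higher and 11 lower with upper-quartile factors and 15 higher and 12 lower with unscaled totals. With the library number as a block, 27.8% were called, with 16.5% higher and 11.3% lower. Both families were chosen on this contrast, so nothing is read from their place among those features. In bulk samples, fewer cells that make a miRNA and less of it per cell cannot be told apart.

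Both ages carry libraries with the numbers I to IV, and libraries of the same number deviated together across features. Within the numbers I to IV, mir-337 was 1.47, 2.91, 1.68 and 3.19 times as high at 26 weeks as at 6 weeks, and mir-299 was 0.440, 0.655, 0.791 and 0.472 times as high. With TMM scaling, the number with the smallest difference in mir-337, number I, had the largest in mir-299. This order depended on scaling. As a share of all counts, mir-299 held 0.129% at 26 weeks against 0.307% at 6 weeks in number I. In number IV it held 0.107% against 0.276%, a relatively larger difference. Without the 26-week library I, the older mean was 1870 ± 513 CPM for mir-337 and 1578 ± 411 CPM for mir-299 (SD, n = 3), and the fitted log2 differences were 1.32 ± 0.20 and -0.67 ± 0.19 (SE).

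The order of the families differed between the ages. Among all 324 features, mir-337 ranked 43 and mir-299 ranked 45 by mean CPM at 26 weeks, whereas at 6 weeks mir-337 ranked 55 and mir-299 ranked 35. Ligation in library preparation favours some sequences, so such ranks compare what was sequenced and not molecules in the cell. By mean log2 CPM over all 8 libraries, mir-337 (10.11) lay between mir-29 (10.17), a regulator of extracellular matrix transcripts, and mir-148 (10.01), with mir-676 (10.26) and mir-217 (9.93) as the next on either side. All 4 were within 0.47 of mir-337, the SD of its log2 CPM at 26 weeks. For mir-299 (10.89) the neighbours were mir-228 (10.97) and mir-25 (11.10) above, and mir-139 (10.76) and mir-489 (10.63) below, again within the 0.36 SD of mir-299 at 26 weeks.

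The ratio of mir-337 counts to mir-299 counts needs no scaling between libraries. It was 1.02, 1.38, 0.639 and 1.85 in libraries I to IV at 26 weeks, against 0.307, 0.310, 0.300 and 0.274 at 6 weeks. The older libraries ran from fewer mir-337 than mir-299 counts, in III, to clearly more, in IV, whereas the younger libraries were nearly alike. The mean ratio was 1.22 ± 0.518 at 26 weeks (SD, n = 4), against 0.298 ± 0.0162 at 6 weeks (SD, n = 4). The sum of both families differed less than either alone, with 3172 ± 559 CPM at 26 weeks, against 3263 ± 231 CPM at 6 weeks (SD, n = 4 each), with the lowest value, 2343 CPM, in the 26-week library I. Families chosen for opposite differences offset each other in a sum, so nothing is read from its small difference.

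**Figure D2:**
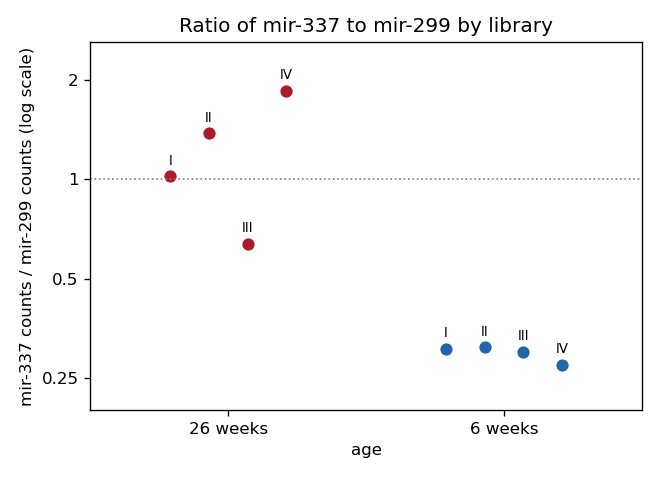
Ratio of mir-337 counts to mir-299 counts in each library (log2-scaled axis, libraries labelled I to IV), with a dotted line at equal counts. The older libraries spread from 0.639 to 1.85, and the younger ones lie between 0.274 and 0.310.

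The spread between libraries of 1 age was larger at 26 weeks for both families, which was not particular to them. On the log2 CPM scale, the SD of mir-337 was 0.47 at 26 weeks and 0.10 at 6 weeks, and that of mir-299 was 0.36 at 26 weeks and 0.11 at 6 weeks. The coefficient of variation of CPM for mir-337 was 31.9% at 26 weeks, against 6.97% at 6 weeks, and for mir-299 it was 26.9% at 26 weeks, against 7.59% at 6 weeks. A larger SD at 26 weeks was found for 149 of the 212 tested features (70.3%), with medians of 0.39 at 26 weeks and 0.28 at 6 weeks. The SD of mir-337 at 26 weeks was 4.66 times that at 6 weeks, and 11 of 212 features had a larger ratio. For mir-299 the SD at 26 weeks was 3.19 times that at 6 weeks. Among their neighbours in level, the SD was also much larger at 26 weeks for mir-148 (0.20 against 0.04), mir-676 (0.90 against 0.22) and mir-25 (0.22 against 0.06). It was smaller at 26 weeks for mir-217 (0.20 against 0.28) and mir-139 (0.14 against 0.23). With 4 libraries an SD is imprecise, and the difference in spread was not tested.

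Set against the 20 tested features nearest in level, mir-337 had a larger SD at 26 weeks than all but 4 (median 0.24) and a smaller SD at 6 weeks than 16 (median 0.20). For mir-299, 9 of its 20 nearest features had a larger SD at 26 weeks (median 0.35) and 14 at 6 weeks (median 0.18). Among all 4371 pairs of the 94 features with a mean of at least 100 CPM, the SD of the log2 ratio was smaller than that of mir-337 to mir-299 (0.66) in 70.9% of pairs at 26 weeks. At 6 weeks it was smaller than that of this pair (0.08) in 3.16% of pairs. This comparison of pairs was chosen after the values were seen.

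**Figure D3:**
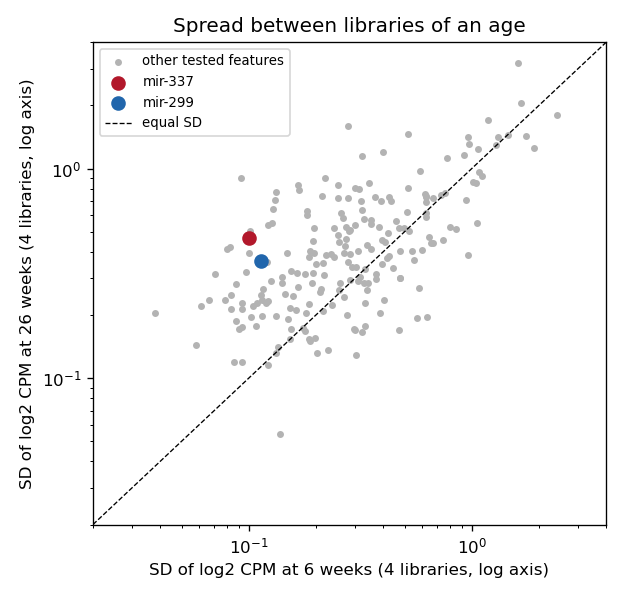
SD of log2 CPM over the 4 libraries at 26 weeks (vertical) against 6 weeks (horizontal), both on log axes, for the tested features, with a dashed line of equal SD. Both named families lie above the line, mir-337 at 0.47 against 0.10 and mir-299 at 0.36 against 0.11.

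The choice of these families did not use the spread within an age, and no relation of mir-337 to mir-299 within ages passed its test. After the age means were removed, Pearson's r over 8 libraries was -0.17 (exact two-sided permutation within ages, p = 0.903) and Spearman's rho was -0.02 (exact permutation p = 0.993). At 26 weeks mir-337 stood 0.46 and 0.33 log2 units below its age mean in I and III, and 0.30 and 0.49 above it in II and IV. In the same libraries mir-299 was 0.31 below its mean in I and 0.50 above it in III, and stood at 0.02 in II and at -0.22 in IV. Without the 26-week libraries IV and I, the farthest in mir-337, r was -0.67. With the library total (log2), r was 0.40 for mir-337 (exact permutation p = 0.517, rho 0.38 with p = 0.476) and 0.57 for mir-299 (exact permutation p = 0.309, rho 0.21 with p = 0.651). Without the 26-week library I and the 6-week library III, the farthest in total, these r were -0.49 and 0.38. Over the 3 relations, Benjamini-Hochberg adjusted exact permutation p-values of r were 0.903, 0.776 and 0.776, and those of rho were 0.993, 0.977 and 0.977.

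**Figure D4:**
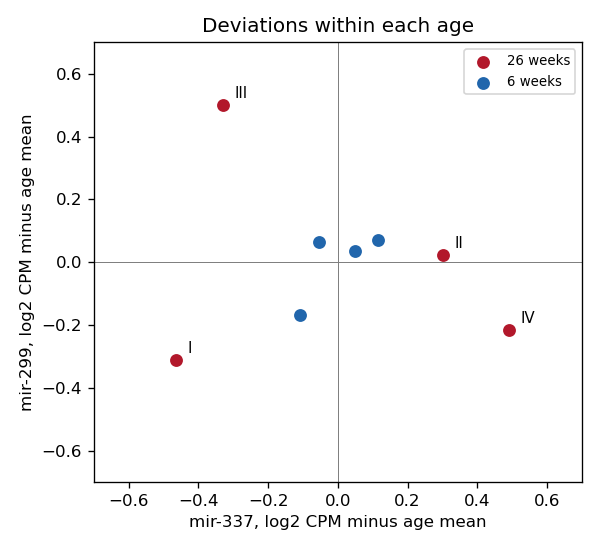
Deviation of log2 CPM from the age mean for mir-299 (vertical) against mir-337 (horizontal) in each library, with the older libraries labelled I to IV. The younger libraries sit close to the centre, and the older ones spread without a common line (r = -0.17 over 8 libraries). Without 1 library, r ran from -0.86 (26-week library I left out) to 0.19 (26-week III left out).

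Of 50 family names known from the mammalian cluster, 5 were in the table: mir-337, mir-299, mir-370, mir-665 and mir-770. The other 3 were far scarcer than mir-337 and mir-299. Their genes lie in the same imprinted region of mammals, where the host gene of miR-770 is the long non-coding RNA Meg3. For mir-370, levels were 8.32, 12.4, 12.9 and 9.89 CPM in libraries I to IV at 26 weeks, against 12.1, 13.2, 13.95 and 12.6 CPM at 6 weeks. The ages overlapped, mir-370 was lower at 26 weeks within each of the numbers I to IV (4 of 4), and the log2 change was -0.25 ± 0.22 (edgeR, Benjamini-Hochberg adjusted p = 0.487, and 0.293 with the library number as a block). For mir-665, levels were 6.71, 3.45, 4.66 and 3.55 CPM at 26 weeks, against 12.1, 6.20, 5.44 and 6.75 CPM at 6 weeks. The ages overlapped here too, with library I the highest at each age and lower values at 26 weeks within 4 of 4 numbers, and the log2 change was -0.73 ± 0.35 (edgeR, Benjamini-Hochberg adjusted p = 0.198, and 0.0604 with the library number as a block). How many of all tested features were lower within 4 of 4 numbers was not counted, so nothing is read from these directions. With 1 to 7 counts per library at 26 weeks and 1 to 5 at 6 weeks, mir-770 was left out by the expression filter. Of the 2 tested, 0 were called by edgeR, where 14.2% of all tested features were. DESeq2 and limma-voom also called 0 of the 2, where they called 38 and 31 of all 212 tested features. By edgeR 0 of the 2 had an unadjusted p under 0.05 (1, mir-665, with the block). How many of all tested features fell under this unadjusted threshold was not counted, so nothing is read from it. These are shallow measurements: at 26 weeks mir-665 rested on 14 to 25 counts and mir-370 on 31 to 61 counts per library, against 22 to 42 and 41 to 59 at 6 weeks.

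The features whose course over the 8 libraries was most like that of each family were found by the root mean square difference of log2 CPM after each feature's own mean was subtracted. For mir-337 they were mir-338 (0.21), mir-223 (0.24), mir-451 (0.28), mir-142 (0.29) and mir-23 (0.32), against a median of 0.76 over the other 211 tested features. As the nearest features they lie below this median by choice. They were picked on these same 8 libraries, so nothing is read from the gap or from libraries in which they peak together. In oligodendrocytes mir-338 promotes myelination, mir-223 and mir-142 are known from myeloid and other blood cells, and mir-451 from red cells. Levels of mir-338 were 20661, 22375, 17707 and 25222 CPM in libraries I to IV at 26 weeks, against 9574, 9058, 8336 and 8842 CPM at 6 weeks. At 26 weeks mir-338 was thus highest in II and IV, as was mir-337, and so was mir-142, with 311, 323, 261 and 389 CPM in libraries I to IV. By contrast, mir-451 (584, 831, 763 and 698 CPM) and mir-23 (936, 1255, 1238 and 1163 CPM) were highest in II and III at 26 weeks. Levels of mir-223 were 57.7, 56.1, 48.5 and 92.8 CPM at 26 weeks, against 35.6, 31.0, 25.8 and 29.8 CPM at 6 weeks, with its highest value in IV. The summed level of 2 of 2 oligodendrocyte miRNAs, mir-219 and mir-338, was 18660 to 26726 CPM at 26 weeks and 8816 to 10345 CPM at 6 weeks. That of 2 of 2 erythroid miRNAs, mir-144 and mir-451, was 1152 to 1311 CPM at 26 weeks and 753 to 973 CPM at 6 weeks. Only mir-451 was clearly higher at 26 weeks (log2 1.15 ± 0.17, SE), whereas mir-144 hardly differed (0.06 ± 0.16). With the age means removed, the features nearest to mir-337 were others: mir-129, mir-786, mir-83, mir-228 and mir-724. The part of oligodendrocytes and blood cells in the level of mir-337 was not tested.

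For mir-299 the most similar features were mir-934 (0.19), pred_640 (0.25), mir-328 (0.29), mir-1338 (0.31) and mir-370 (0.31), against a median of 0.62. Here too they lie below the median by choice, and nothing is read from libraries in which they peak together. All 5 were scarcer than mir-299. The most alike, mir-934, averaged 7.75 ± 2.11 CPM at 26 weeks and 10.6 ± 0.967 CPM at 6 weeks, and the most abundant, mir-1338, averaged 51.1 ± 8.60 CPM at 26 weeks and 74.3 ± 10.8 CPM at 6 weeks (SD, n = 4 each). The last of the 5, mir-370, is also 1 of the names from the mammalian cluster. From mir-337, mir-299 differed by 1.05, which placed it 162 of 211 in likeness, and from mir-299, mir-337 placed 192 of 211. Families chosen for opposite differences lie far apart on this measure, so nothing is read from these places. The step between ages sets much of these profiles: when the age means were removed, 0 of the 5 features nearest to mir-337 and 1 of the 5 nearest to mir-299, mir-934, were again among the nearest 5. In likeness to each other, mir-299 then placed 108 of 211 and mir-337 placed 109 of 211.

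**Figure D5:**
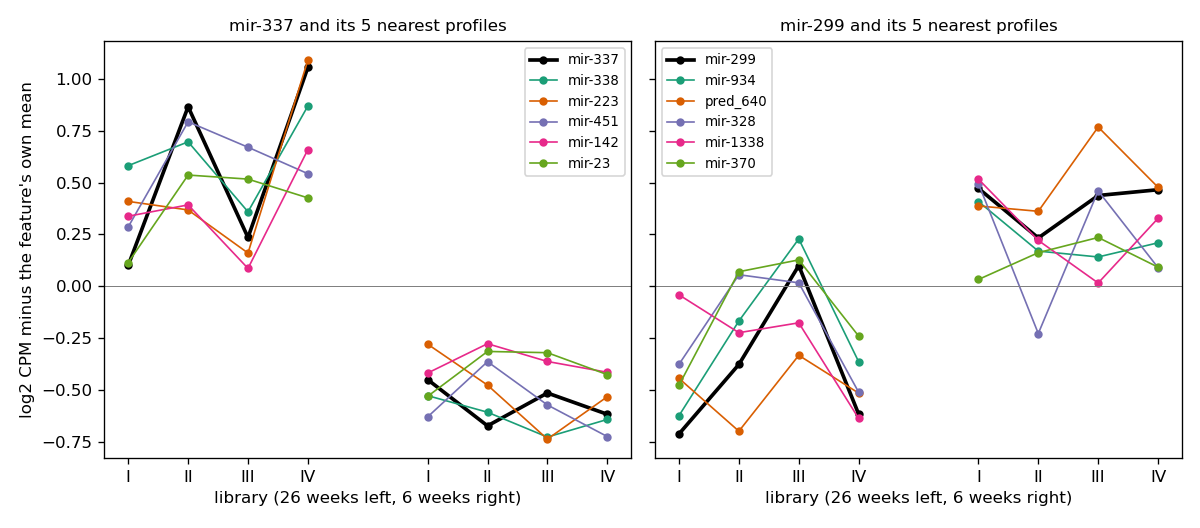
Log2 CPM minus each feature's own mean over 8 libraries, for mir-337 (left, black) and mir-299 (right, black) with the 5 features of the most similar profile. At 26 weeks mir-337, mir-338, mir-223 and mir-142 peak in library IV, whereas mir-451 and mir-23 peak in II. On the right, mir-299, mir-934, pred_640 and mir-370 peak in library III at 26 weeks, whereas mir-328 peaks in II and mir-1338 in I. Some of these peaks are slight or rest on few counts. At 26 weeks mir-370 had 61 counts in both II and III, and mir-328 held 18.3 CPM in II against 17.8 in III. For pred_640 the level was 2.84 CPM in II and 3.81 CPM in III.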

How the data were processed

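The authors deposited raw counts: for every library, 1 whole number for each family name or predicted miRNA. Per the labels' protocols, small RNA libraries were prepared with a TruSeq kit. The submitters' processing notes name BWA 0.7.12-r1039 and Trimmomatic 0.36 among the tools, with SAMtools 1.3.1-9 and bcl2fastq 1.8.4. The build, annotation, counting and handling of multi-mapping reads are not stated there. Without molecular identifiers, counting error is only a lower bound.

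Columns were matched to libraries by title. Counts were analysed in R 4.3.3 with edgeR 4.0.16 (quasi-likelihood test, TMM factors, filterByExpr, two-sided, Benjamini-Hochberg over 212 features). The fit was tried on simulated counts with no pairing and equal dispersion at both ages, unlike these data. The filter left out 112 features with 0.00948% of counts. SE is the absolute log2 fold change over the square root of F. Log2 CPM used a prior count of 2. The main relations used 576 within-age arrangements. With the block, a relation was instead that of the differences between ages over the numbers I to IV, permuted over the numbers. No libraries were near copies (chi-square per degree of freedom at least 131). Deviations from the age means correlated by 0.287 to 0.528 between libraries of the same number, above the limit of 0.1. The highest correlation between libraries of different numbers, 0.234, was lower but also above that limit. The numbers were taken as pairing the libraries, though what a number stands for is not stated. The main edgeR fit and the main permutations left this pairing out, and only the block used it. The alternatives tried were scaling by total counts, RLE or upper quartile, other filters, DESeq2 1.42.0, limma-voom (limma 3.58.1), the block, the log2 total as a covariate, a prior count of 0.5 and leaving out libraries.

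Named besides mir-337 and mir-299 were the list of cluster names, the 5 most similar profiles and the 2 next features in level on each side. The families and lists were chosen with earlier results of these data known.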

Additional observations from a re-analysis of the deposited data

Results flagged for a closer look

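Among 44 groups of 4 libraries of the 22 named features, 1 held a value far from the others. For mir-299 at 6 weeks, library II had a log2 CPM of 11.12, and the other 3 libraries had 11.33 to 11.36. The gap is 0.856 of the range, above Dixon's critical value for groups of 4, which chance exceeds in about 1 of 20 groups.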

How the results depend on the processing

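Under all 18 alternatives mir-337 stayed higher (log2 0.93 to 1.36) and mir-299 lower (-1.06 to -0.62) at 26 weeks. Both families were chosen for these directions, so nothing is read from the directions staying the same. Leaving out 1 library gave 1.05 to 1.36 and -0.88 to -0.62. With the log2 total as a covariate the values were 0.95 ± 0.30 and -1.06 ± 0.24 (SE). With the replicate block they were 1.13 and -0.80. Over all tested features the median log2 change was -0.06 with TMM, -0.24 with upper-quartile factors and -0.29 with total counts. Relative to it, mir-337 was at 1.24, 1.24 and 1.22, and mir-299 at -0.71, -0.69 and -0.72.

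The calls by edgeR numbered 30 (22 higher, 8 lower). With the replicate block they were 59 (35 and 24), without both libraries I 50 (20 lower), with the log2 total as a covariate 4 (4 higher, 0 lower), and without the filter 3 were lower; the cause was not tested. Leaving out 1 library gave 23 to 47 calls, 21 to 29 higher and 2 to 18 lower. The total moved by over 1.5 times without the 26-week library I (47, with 18 lower). The count of lower calls did so also without the 26-week II (3) or III (5) and the 6-week II (2), III (5) or IV (2). With total counts alone they were 27 (15 and 12), and with upper-quartile factors 26 (15 and 11). Of the other cluster names, neither mir-370 nor mir-665 was called under any alternative, though mir-665 did not pass the stricter filter and was not tested there. The log2 change of mir-665 ran from -0.96 to -0.14, with -0.41 without the 6-week library I, -0.47 without the 26-week II and -0.14 with the covariate. That of mir-370 ran from -0.60 with the covariate to -0.12 without the 6-week library II, and was -0.48 with total counts alone and -0.41 with upper-quartile factors. It was also reduced by over 1.5 times without the 26-week library I (-0.15) or IV (-0.16), the 6-week IV (-0.14) or the filter (-0.15).

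The within-age r of mir-337 and mir-299 ran from -0.86 to 0.19 without 1 library, and turned positive without the 26-week library III (0.19) or IV (0.08); it was -0.62 with total counts alone and -0.04 with the replicate block. That of mir-337 and the total ran from -0.21 to 0.70 without 1 library, was negative without the 26-week library I (-0.21), was -0.061 without both libraries I, 0.05 with total counts alone and 0.87 with the replicate block (exact permutation p = 0.167). The within-age r of mir-299 and the total ran from 0.29 to 0.64 without 1 library, and was 0.13 with total counts alone. With the block, the r of their differences between ages was 0.34. Over all alternatives the exact permutation p was at least 0.167.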
